A study of Mus musculus with 16 samples.

Results

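The genes described here encode the proteasome, the barrel-shaped protease that degrades ubiquitin-tagged proteins. They were chosen by symbol: every row whose name began with Psma, Psmb, Psmc, Psmd, Psme, Psmf or Psmg followed by a digit, without the names that contain "-ps". The rule found 50 of 23221 symbols and left out 2. By role, 7 encode the alpha ring and 7 the beta ring of the core, 6 the ATPases of the cap, 11 its other subunits, 5 the immunoproteasome (Psmb8, Psmb9, Psmb10, Psme1 and Psme2), 3 other activators or an inhibitor (Psme3, Psme4 and Psmf1) and 7 assembly factors. The remaining 4 stood outside these classes: Psma8 and Psmb11, core subunits of testis and thymus, Psme2b, a copy of Psme2, and Psmc3ip, which shares the prefix but is a recombination protein and no subunit.

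RNA came from myofibers, the multinucleated cells of skeletal muscle, taken from the extensor digitorum longus, a fast hindlimb muscle, of male C57BL/6 mice, after mononucleated cells on the fibres had been stripped off. The 16 libraries formed 4 groups of 4: controls of 4 months, runners of 4 months, controls of 22 months and runners of 22 months. Runners had free access to a wheel for 5 weeks. The labels leave unsaid if each library is a mouse of its own, so p-values measure the spread between libraries, which may be partly technical.

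The core proteasome is a stack of 4 rings. Its outer rings, made of the alpha subunits, form the gate, and its inner rings, made of the beta subunits, carry the active sites, of Psmb6, Psmb5 and Psmb7. The 19S cap recognises the ubiquitin chain, removes it and feeds the unfolded protein into the core through a ring of ATPases. Interferon replaces the 3 catalytic subunits by Psmb9, Psmb8 and Psmb10, which favours peptides for presentation on class I molecules. In muscle the ubiquitin-proteasome route is the main way by which contractile proteins are degraded, and it is best known for its part in atrophy.

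Reads assigned to genes ran from 30.7 M to 67.4 M per library. Levels are given as RPM, the reads of a gene scaled to a common library total, with 1 size factor per library so that all 16 libraries are comparable. Where genes are compared with each other, levels are RPKM, the RPM per kilobase of annotated exon. The myofiber markers made up 103042 to 202159 RPM. Of 13 leukocyte and macrophage markers in the tables, Ptprc was at 0 in 14 libraries and C1qa in 14, and the list summed to 5.36 to 62.0 RPM, with Cd68 alone at 4.85 to 48.3. For fibro-adipogenic progenitors, cells of the muscle stroma, 10 markers summed to 1.28 to 13.2 in young controls and 84.8 to 256 in young runners, and to 4.99 to 43.2 in old controls and 41.6 to 83.9 in old runners. The 12 endothelial markers summed to 9.43 to 26.2 in young controls, 35.1 to 144 in young runners, 13.5 to 123 in old controls and 28.5 to 107 in old runners. The 9 satellite cell markers, of the stem cells of muscle, summed to 301 to 883 in young controls and 897 to 1138 in young runners, and to 289 to 525 in old controls and 608 to 870 in old runners, apart at both ages. Most of this sum came from Myod1 (93.1 to 851 over the 16 libraries), Itga7 (70.6 to 182) and Sdc4 (37.8 to 150). Pax7 reached at most 0.148 and was at 0 in 9 libraries, and Calcr was at 0 in 14. The 8 markers of pericytes and smooth muscle summed to 53.2 to 178, 152 to 293, 32.3 to 195 and 112 to 252 in the same order of groups, which overlap at both ages. Abcc9 alone was at 26.3 to 260. The part of these cells in the results on running was not tested. One young control, the library numbered 4, stood apart: it held the highest level of its group for 36 of 48 proteasome genes with reads enough to test and the highest of all 16 libraries for 19. Other groups had a leading library too. These counts were 23 and 9 for the old control numbered 2, 29 and 3 for the old runner numbered 1, and 23 and 6 for the young runner numbered 3.

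Proteasome genes took 0.566% to 0.828% of the reads of a library. The core and cap were expressed at like levels, and the immunoproteasome and assembly genes far below them. Over all 16 libraries the highest mean was that of Psmc3, an ATPase of the cap, at 140 RPKM, followed by the core subunit Psmb6 at 137 and the ATPase Psmc5 at 134. The next in order, Psmb2 (134) and Psma6 (133), cannot be told from these beyond the spread between libraries, which ran from 97.8 to 174 for Psmc3 alone. Within the alpha ring, whose 7 subunits occur once each per ring, the mean level ran from 37.9 for Psma2 to 133 for Psma6, a 3.52-fold range. The beta ring spanned 5.06-fold, from Psmb1 (27.1) to Psmb6, and the non-ATPase cap subunits 5.42-fold, from Psmd11 (21.9) to Psmd2 (119). The length used joins the annotated exons of all transcripts of a gene. It is 4595 bases for Psmb1 and 1872 for Psmb6, 3673 for Psma2 and 1234 for Psma6, and 6383 for Psmd11 and 4038 for Psmd2. The part of this length in these ranges and in the order of genes was not tested. The median over the 7 alpha subunits was 63.0, over the beta subunits 65.8, over the ATPases 101 and over the other cap subunits 73.4, against 5.44 over the assembly factors. Psma8 and Psmb11 had reads in 2 libraries and 1 library, with at most 0.320 and 0.0886 RPM.

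**Figure D1:**
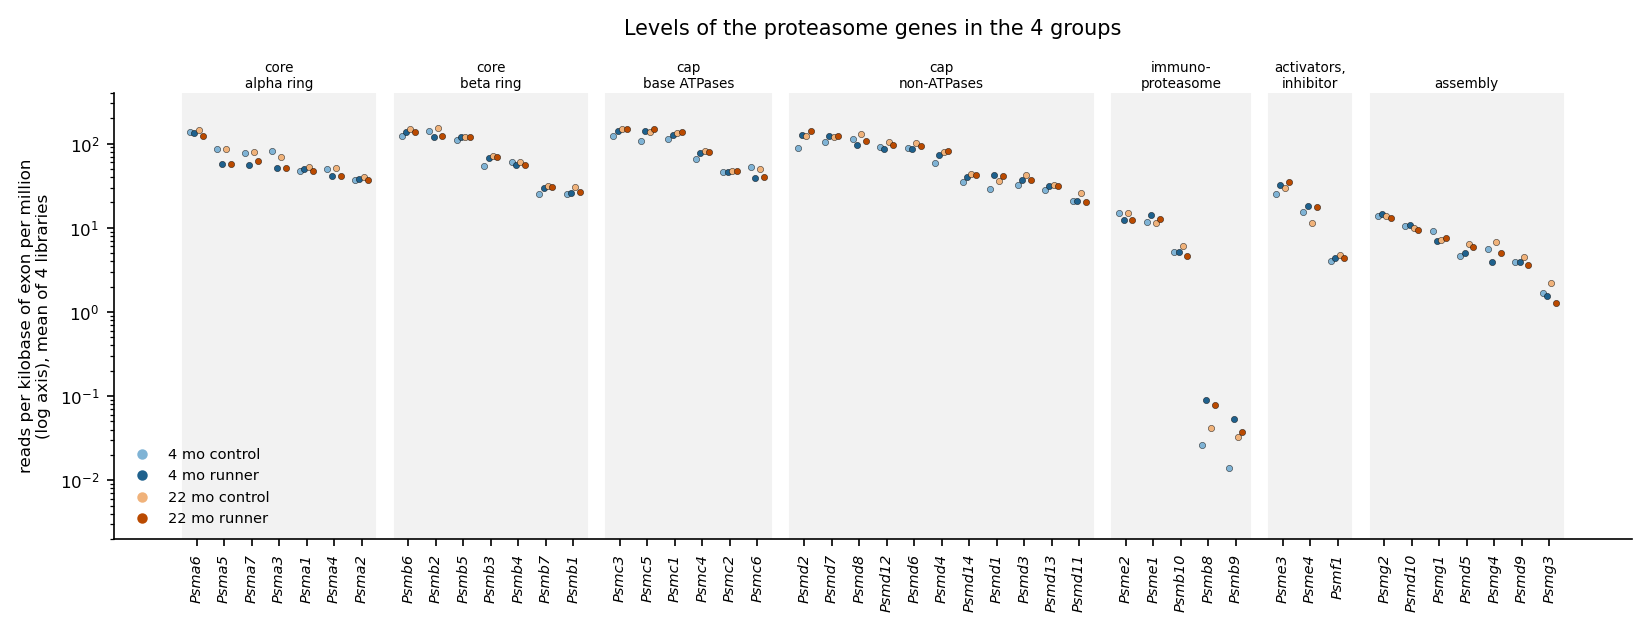
Mean level of each proteasome gene in the 4 groups, in RPKM on a log axis, by class. Core and cap genes lay between 21.9 and 140 over all libraries, assembly factors between 1.66 and 13.7, and Psmb8 and Psmb9 near 0.

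Between runners and controls, averaged over both ages, single subunits of the core and of the cap differed in opposite directions. The alpha subunits Psma3 and Psma5, of the ring that forms the gate of the core, fell. Psmd1 and Psmd2, the scaffold subunits of the cap that bind ubiquitin receptors, rose, as did Psme3, the subunit of the nuclear activator PA28-gamma. This model used all 16 libraries (limma with voom weights on read counts recovered from the deposited values). Of 48 members tested, 3 were higher and 2 lower at an adjusted p under 0.05, which is 6.25% and 4.17%, against 2.88% and 2.72% of all 14356 genes tested (803 in all, 5.59%). The median difference over the members was -0.01 on the log2 scale, against 0.06 over all genes.

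Psma3 (chromosome 12, 70974621 to 70996347, plus strand, mm10, none of its exons shared with another gene) was found at 425, 269, 273 and 300 RPM in young controls and at 239, 164, 197 and 188 in young runners. Old controls held 232, 284, 293 and 265, and old runners 196, 193, 223 and 181. At both ages every runner lay below every control of its age. The averaged difference was -0.55 on the log2 scale (SE 0.11, adjusted p = 0.0124).

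Psma5 (chromosome 3, 108256926 to 108279974, plus strand) was at 159, 85.6, 96.2 and 117 in young controls and 86.2, 64.7, 72.5 and 76.2 in young runners. In old controls it was at 99.5, 117, 120 and 113, and in old runners at 67.5, 76.9, 88.7 and 68.8. The old groups did not overlap, and among the young only 1 runner lay above the lowest control. The averaged difference was -0.57 (SE 0.12, adjusted p = 0.0164). Psma5 shares exon sequence with 1700010K24Rik on the other strand, and the libraries kept no strand, so reads of both genes cannot be told apart there. Both alpha subunits passed the threshold under all 24 alternative settings.

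Psmd2 (chromosome 16, 20651652 to 20663414, plus strand) stood at 328, 409, 313 and 359 in young controls and 492, 551, 539 and 465 in young runners, with no overlap. Old controls were already at 467, 473, 486 and 546, and old runners at 563, 554, 488 and 639, which overlap. The averaged difference was 0.36 (SE 0.08, adjusted p = 0.0190). It held in 23 of 24 alternatives.

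Psmd1 (chromosome 1, 86064387 to 86139151, plus strand) gave 230, 234, 187 and 192 RPM in young controls and 297, 320, 317 and 282 in young runners. Its levels were 221, 286, 257 and 278 in old controls and 344, 284, 271 and 299 in old runners. Again the young groups were apart and the old ones overlapped. The averaged difference was 0.37 (SE 0.08, adjusted p = 0.0218). This call was lost in 5 of 24 alternatives, among them quantile normalisation, upper quartile scaling and removal of the trend on exon length (adjusted p up to 0.399), and without the young runner numbered 2. Exons of Psmd1 overlap those of Htr2b and Gm21972.

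Psme3 (chromosome 11, 101316213 to 101323537, plus strand) was measured at 64.9, 87.4, 68.7 and 73.0 in young controls and 93.5, 106, 86.7 and 97.3 in young runners. On this scale 1 young runner lay just under the highest young control, while on the log2 scale of the deposited table the young groups were apart. Old controls had 89.5, 93.9, 77.8 and 87.6, and old runners 107, 98.9, 96.2 and 107, above every old control. The averaged difference was 0.31 (SE 0.08, adjusted p = 0.0417). It was lost in 17 of 24 alternatives, 13 of them the removal of a single library, and its highest adjusted p was 0.114.

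**Figure D2:**
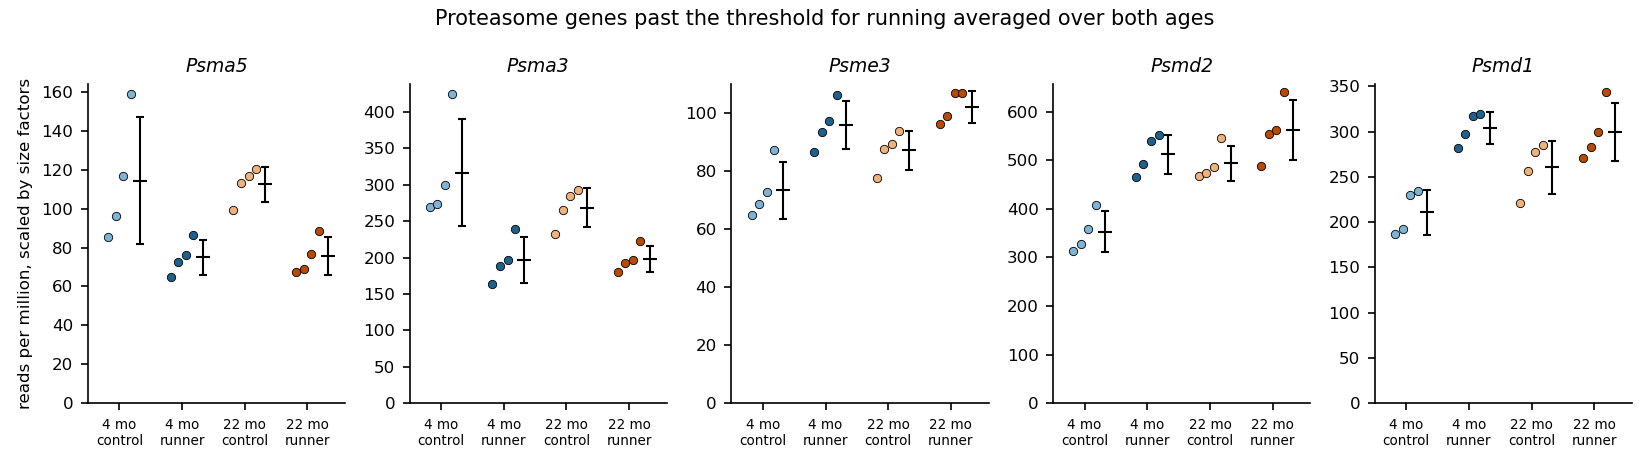
Levels of the 5 proteasome genes past the threshold in each of the 16 libraries, in RPM. Points are libraries, and the bar beside them shows the mean and SD of 4. Psma5 and Psma3 are lower in runners at both ages, and Psmd2 and Psmd1 separate the groups at 4 months but overlap at 22 months.

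**Figure D3:**
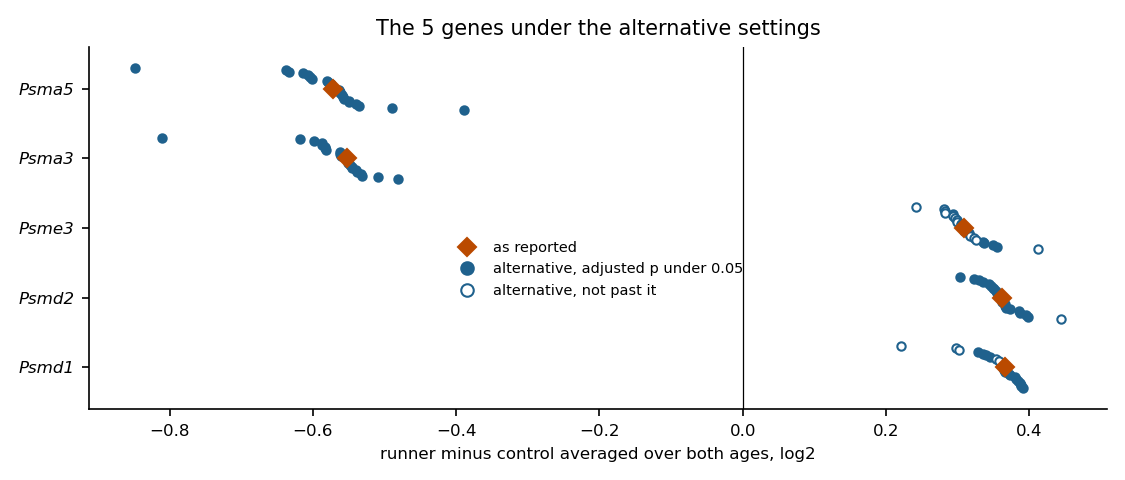
Averaged difference between runners and controls, on the log2 scale, of the same 5 genes under 24 alternative settings (circles, filled where the adjusted p is under 0.05) and as reported (diamonds). No setting reversed a sign, and the calls of Psma5 and Psma3 held in all of them.

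Across genes, the averaged difference between runners and controls rose with exon length (Spearman rho 0.25 over 13959 genes, which are not independent replicates). Within single libraries the deviation of a gene from its mean was related to exon length with a rho of -0.26 to 0.19 in controls and -0.08 to 0.30 in runners. Annotated exons sum to 3894 bases for Psma3, 1321 for Psma5, 4038 for Psmd2, 7265 for Psmd1 and 2949 for Psme3. With the trend removed Psma3, Psma5, Psmd2 and Psme3 kept an adjusted p under 0.05.

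The rest of the alpha ring had differences of the same sign without passing. All 7 alpha subunits had a negative averaged difference, with a median of -0.28, and 5 of 7 did once the trend on exon length was removed. Psma7 gave -0.39 (adjusted p = 0.111) and Psma4 -0.28 (adjusted p = 0.125), while Psma1 (-0.01) and Psma2 (-0.04) were close to 0. The beta ring had 4 positive and 3 negative differences (median 0.03, none passed), and its median was -0.04 after quantile normalisation. Of the ATPases, 5 of 6 were positive, and 4 after quantile normalisation or removal of the length trend. The exception, Psmc6, had the lowest adjusted p of the ring (-0.37, adjusted p = 0.0952). Among the 11 other cap subunits 7 were positive, with a median of 0.08, and apart from Psmd1 and Psmd2 none passed.

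The balance of alpha ring to cap can be read within a library, where scaling has no effect. A trend on exon length within a library is not removed by it, and its part in the ratio was not tested. This ratio was chosen after its parts had been seen and is given as a description. Reads of the 7 alpha genes amounted to 37.9%, 29.7%, 34.0% and 36.7% of the reads of the 17 cap genes in young controls and 28.4%, 22.6%, 24.4% and 25.4% in young runners. In old controls they came to 29.2%, 28.7%, 30.0% and 27.6%, and in old runners to 21.8%, 24.3%, 26.5% and 22.7%. Runners lay below controls at each age without overlap. Old controls lay between 27.6% and 30.0%, and only 1 young control was within that range.

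At each age alone no member passed, in tests with 8 libraries each. In the young, 81 of 10624 genes passed (0.762%) and 0 of 46 members. Psmd1 (0.52, adjusted p = 0.0956), Psmd2 (0.53, adjusted p = 0.0966) and Psma3 (-0.66, adjusted p = 0.110) had the smallest p of the members on the deposited log2 scale. On that scale their groups did not overlap, and neither did those of Psme3 and Psmd3, a cap subunit (155, 162, 157 and 160 RPM in controls and 186, 190, 178 and 180 in runners). That makes 4 members higher and 1 lower without overlap, or 8.7% and 2.17% of 46, against 5.71% and 5.77% of all genes. The ATPases and other cap subunits had medians of 0.20 each and the alpha ring a median of -0.25, with 0.01 over all genes. Without the young control numbered 4 the median over all members was 0.16 in place of 0.08, and 0 members passed.

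In old mice 12 of 9379 genes passed (0.128%), 7 higher and 5 lower, and 0 of 46 members. The split of all genes was 11 and 12 with median centring and 9 and 15 with quantile normalisation. The smallest p among members belonged to Psma5 (-0.52, adjusted p = 0.110), Psma3 (-0.41, adjusted p = 0.151) and Psme4 (0.64, adjusted p = 0.175). Psme4 encodes PA200, a large single-chain activator of the core. It stood at 126, 55.9, 96.5 and 98.5 RPM in old controls and 115, 155, 170 and 150 in old runners, so that 1 control lay above the lowest runner. In 9 members every runner lay below every control, which is 19.6% of 46 against 5.29% of all genes. These were 5 alpha subunits (Psma3, Psma4, Psma5, Psma6 and Psma7), Psmb2 and Psmb4 of the beta ring, and the assembly factors Psmg3 and Psmg4. Psme3 alone was higher without overlap (2.17% of 46, against 4.86%). At this age the difference rose with exon length over all genes (Spearman rho 0.34 over 9199 genes, which are not independent replicates). Over the 46 members rho was 0.0003. With the length trend removed the members' median was -0.015 in place of -0.086. The part of exon length in these shares was not tested. The alpha ring had 7 of 7 negative differences, and this count stayed at 7 under all alternatives. Its median of -0.28 ranged from -0.36 to -0.21 over them. Without the old control numbered 1, Psma5 passed (adjusted p = 0.0465), and with library weights Psma3, Psma5 and Psme4 did.

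**Figure D4:**
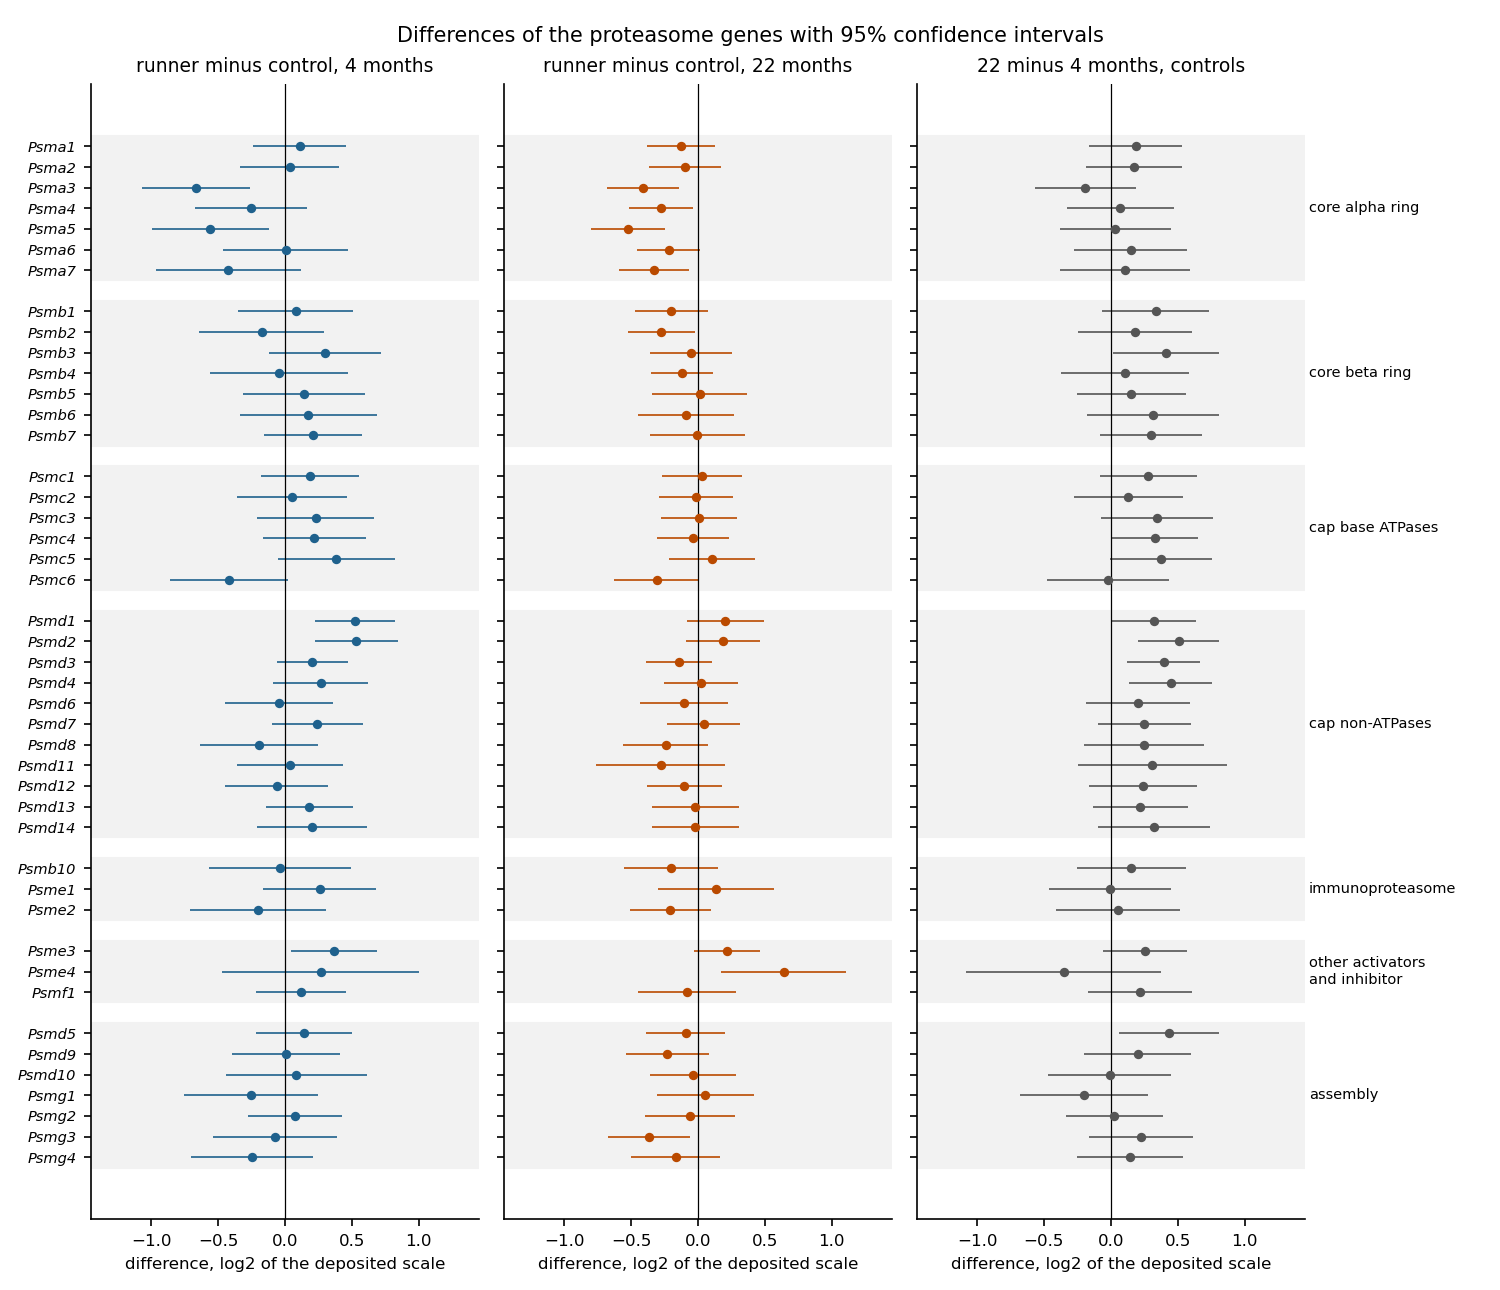
Difference of each tested member with its 95% confidence interval, on the log2 scale of the deposited values, between runners and controls at 4 months, at 22 months, and between ages in controls, by class. The alpha ring lies left of 0 in old runners, and 16 of 17 cap genes lie right of 0 in the comparison of ages.

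Whether running acted differently at the 2 ages was tested as a difference of differences. No member passed, nor did any of 14356 genes (0%), and 1050 genes (7.31%) had an unadjusted p under 0.05. Psmd3 (-0.37, adjusted p = 0.567), Psmd2 (-0.36, adjusted p = 0.671) and Psmd1 (-0.34, adjusted p = 0.699) had the smallest p, each with the smaller difference in old mice. The estimate was negative for 40 of 48 members (median -0.22, against 0.13 over all genes). Quantile normalisation shifted the median of all genes to -0.03. The members' median stayed negative under every alternative except the replicate block described below, where it was 0.22. The interval for Psma3 ran from -0.22 to 0.70 and that for Psma5 from -0.51 to 0.53, so differences of that size between ages are within the error.

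Between controls of the 2 ages, the differences of the cap genes were mostly positive (old minus young), and none passed. Of 46 members 39 had a positive difference and 7 a negative one, with a median of 0.20 against -0.01 over all genes. None passed, while 11 of 9831 genes did (0.112%). All 11 non-ATPase cap subunits were positive (median 0.31), as were 7 of 7 beta subunits (0.30) and 5 of 6 ATPases (0.30). In the alpha ring 6 of 7 were positive, with a smaller median of 0.11, and of the assembly factors 5 of 7 (0.14). Psmd2 (0.51, adjusted p = 0.226), with the levels given above, Psmd4 (0.45, adjusted p = 0.269) and Psmd3 (0.39, adjusted p = 0.275) had the smallest p, and in these 3 the groups did not overlap (6.52% of 46, against 4.16% of all genes). Psmd4, the ubiquitin receptor of the cap, was at 197, 156, 153 and 161 in young controls and 219, 212, 212 and 259 in old controls. Psmd3 was at 213, 193, 192 and 231 in old controls.

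Leaving out the young control numbered 4 raised the members' median to 0.31, with 43 of 46 positive. Without the young control numbered 5 it was 0.14, with 33 positive. The 11 cap subunits were positive under all 18 settings. The 2 comparisons of runners with controls and the comparison of ages in controls share their control libraries, so their values are not independent.

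Old and young runners were compared in the same way. The members' median was 0.02, none of 46 passed, and 2 of 9387 genes did (0.0213%). Psmd12 (0.17, adjusted p = 0.988), a cap subunit that was at 231, 225, 232 and 213 in young and 280, 235, 252 and 250 in old runners, was the 1 member without overlap, 2.17% against 1.83% of all genes. Psmd5, an assembly chaperone of the ATPase ring, followed with 0.18 (adjusted p = 0.988). It was at 35.6, 37.0, 35.5 and 37.6 in young and 46.6, 42.1, 37.5 and 42.1 in old runners. Psmd8 had the third smallest p (0.17, adjusted p = 1.0), with 335, 255, 297 and 284 in young and 347, 306, 381 and 283 in old runners. For Psma3 (0.02), Psma5 (0.02) and Psmd1 (-0.02) intervals reached no further than 0.32 from 0.

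Of the 3 interferon-induced catalytic subunits, Psmb8 and Psmb9 were almost absent. Psmb8 had 0 reads in 5 libraries and at most 41 reads (0.696 RPM) in the others. Its values were 0, 0, 0.0295 and 0.321 in young controls, 0.562, 0.0377, 0.260 and 0.342 in young runners, 0, 0, 0.455 and 0.115 in old controls and 0.0353, 0, 0.696 and 0.323 in old runners. For Psmb9, 11 libraries held 0 reads. Young controls had 0, 0, 0.207 and 0, young runners 0.776, 0, 0 and 0, old controls 0, 0, 0.480 and 0, and old runners 0, 0, 0.221 and 0.323 RPM. A count of 0 allows up to 3 reads, or 0.0440 to 0.106 RPM depending on the library. Neither gene was deep enough for the tests at a single age. Exons of Psmb9 overlap Tap1 on the other strand, which itself was at 0 to 4.2 RPM.

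Psmb10 was the one immune catalytic subunit with reads in every library, from 5.15 to 14.2 RPM. It was at 8.0, 6.97, 9.82 and 10.1 RPM in young controls and 12.5, 6.35, 11.2 and 5.15 in young runners. Old controls held 9.61, 14.2, 9.04 and 8.12, and old runners 8.97, 6.17, 7.47 and 9.17. The groups overlapped throughout. Per kilobase it amounted to 18.1% ± 4.36 (SD, n = 16) of its partner Psmb7, whereas Psmb8 came to 0.0516% ± 0.0617 of Psmb5 and Psmb9 to 0.0259% ± 0.0443 of Psmb6. Annotated exon is 1705 bases for Psmb10 and 3421 for Psmb7, so the share by reads is lower. In the young control numbered 4, 370 reads of Psmb10 stood against 4903 of Psmb7. Psmb8 and Psmb9 have more annotated exon than their partners, so their shares by reads are higher. Exons of Psmb7 overlap those of Nek6 on the other strand.

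Psme1 and Psme2, which form the interferon-induced activator PA28-alpha-beta, were present in every library. Psme1 was at 30.1, 25, 18.4 and 28.4 in young controls, 26.8, 33, 38.1 and 27 in young runners, 28.9, 26.6, 29.2 and 15.8 in old controls and 37.0, 26.6, 19.6 and 29.4 in old runners. Psme2 was at 36.0, 17.2, 21.8 and 30.7, then 25.4, 20.7, 24.8 and 16.7, then 23.3, 31.9, 27.8 and 22.9, and then 23.8, 20.4, 19.5 and 23.0 in the same order of groups. Neither separated any pair of groups.

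None of the immune genes passed in any test. Psmb8 and Psmb9 entered only the model of all 16 libraries (adjusted p = 0.358 and 0.758 for running averaged over both ages). Their averaged differences were both positive, the larger 1.86 and the smaller 0.79. No library held more than 41 reads of Psmb8 or 29 of Psmb9. For running averaged over both ages the differences were -0.29 for Psmb10 (95% interval -0.73 to 0.14, adjusted p = 0.409), 0.22 for Psme1 (-0.13 to 0.57, adjusted p = 0.449) and -0.27 for Psme2 (-0.60 to 0.07, adjusted p = 0.316). For age in controls they were 0.15 (-0.25 to 0.56), -0.01 (-0.46 to 0.45) and 0.05 (-0.41 to 0.51). At 4 months running gave -0.04 for Psmb10, 0.26 for Psme1 and -0.20 for Psme2, and at 22 months -0.20, 0.13 and -0.21. Age in runners gave -0.05, -0.12 and 0.00. Psme2b, whose sequence is close to Psme2, was at 1.53 to 3.85 RPM, and how reads were divided between both is not known.

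The groups of the constitutive partners overlapped too. Psmb5 was at 124, 75.2, 82.1 and 110 in young controls, 105, 94.4, 144 and 91.2 in young runners, 101, 130, 102 and 93.3 in old controls and 142, 91.3, 93.5 and 105 in old runners. Psmb6 ran from 171 to 310 in young controls, 214 to 327 in young runners, 229 to 346 in old controls and 222 to 326 in old runners. Psmb7 ran from 72.4 to 106, 89.7 to 120, 90.9 to 135 and 87.1 to 133 in these groups. The averaged differences for running were 0.07 (-0.22 to 0.36), 0.03 (-0.28 to 0.35) and 0.09 (-0.16 to 0.35), with adjusted p of 0.669 or more.

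**Figure D5:**
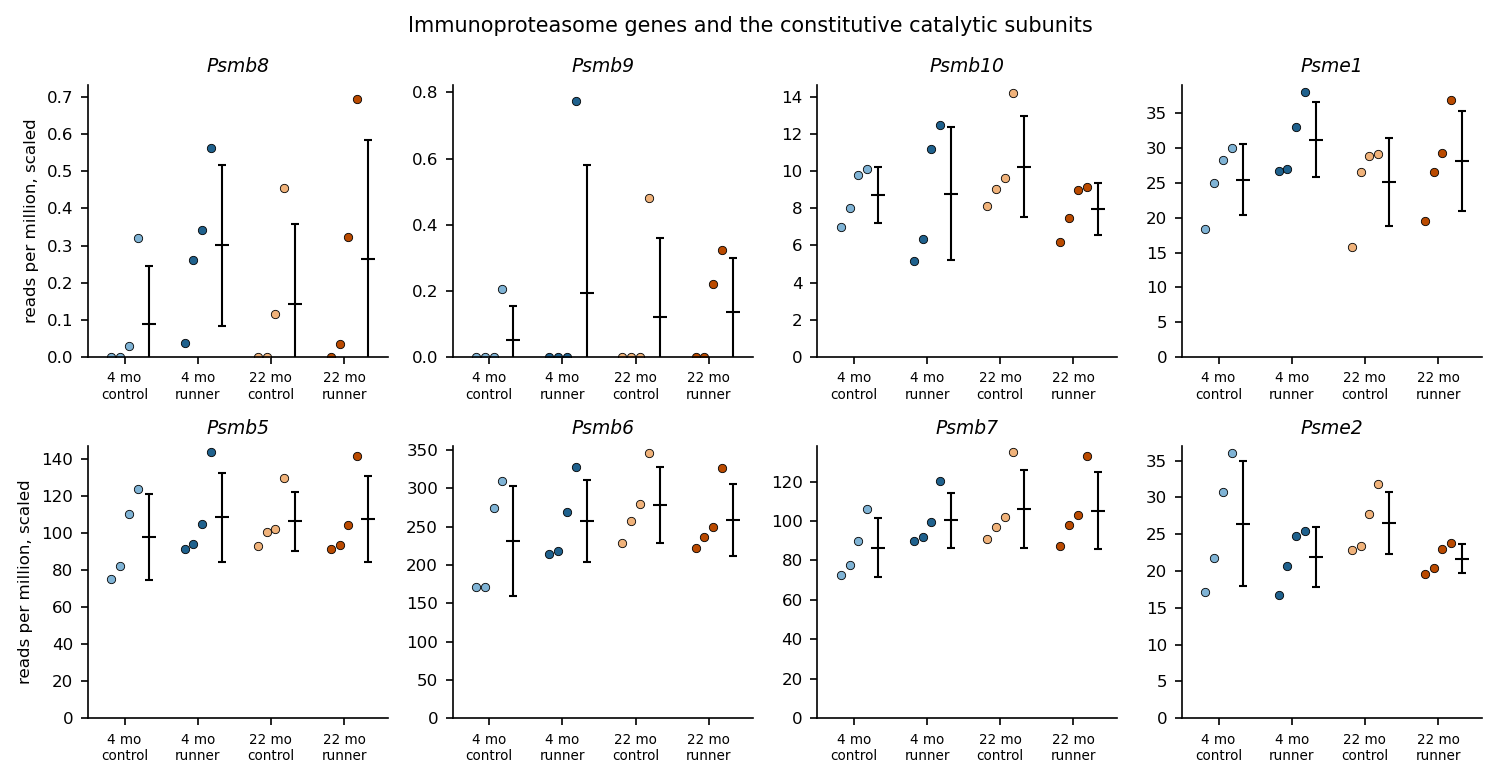
Levels of the 5 immunoproteasome genes and of the 3 constitutive catalytic subunits in each library, in RPM with the mean and SD of 4. Psmb8 and Psmb9 stay at or under 0.776 while Psmb5, Psmb6 and Psmb7 lie between 72.4 and 346, and in none of the 8 genes are the groups apart.

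The assembly factors build the core (Psmg1 to Psmg4) and the base of the cap (Psmd5, Psmd9 and Psmd10). Their levels ran from 1.66 RPKM for Psmg3 to 13.7 for Psmg2. None of the 7 passed in any of the 6 tests. For running averaged over both ages 5 were negative (median -0.14), with Psmg3 at -0.45 (adjusted p = 0.191). Psmg3 was at 6.00, 6.53, 6.46 and 6.21 RPM in old controls and 3.11, 4.57, 3.65 and 3.25 in old runners, and at 5.28, 3.24, 4.58 and 6.31 in young controls and 5.78, 4.49, 4.19 and 3.22 in young runners. The old groups were apart and the young ones overlapped. Psmd5 had the lowest p of the class for age in controls (0.43, adjusted p = 0.367), with 42.1, 29.2, 28.1 and 32.3 in young and 54.3, 48.5, 40.6 and 39.8 in old controls.

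Lists of proteasome partners, ubiquitin genes, shuttles, regulators, and genes of antigen processing and interferon were examined beside the members. Of their genes, 5 passed for running averaged over both ages, all higher in runners, and none in the other 5 tests. They were 8.2% of the 61 genes of 5 lists, against 2.88% of all genes called higher. The lists were chosen with earlier results of these data known, so this share is a description and no independent test. In the list of proteasome partners 1 of 11 rose: AI314180, which encodes the adaptor Ecm29 that joins core and cap, at 0.76 (adjusted p = 0.0173). It was at 85.0, 165, 166 and 148 RPM in young controls, 176, 254, 162 and 223 in young runners, 148, 72.2, 117 and 135 in old controls and 209, 235, 222 and 226 in old runners. The groups were apart at 22 months and overlapped at 4 months.

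Of 6 genes of ubiquitin and its activation 1 rose, Uba1, the enzyme that activates ubiquitin (0.51, adjusted p = 0.0136). Uba1 was at 54.6, 95, 87.7 and 92.2 in young controls against 126, 133, 125 and 137 in young runners, and at 96.7, 108, 98.3 and 112 in old controls against 132, 139, 124 and 128 in old runners, without overlap at either age. Of 12 shuttles and genes of the Vcp segregase 1 rose, the shuttle Ubqln4 (0.41, adjusted p = 0.0316), a call that 10 of 24 alternatives lost. Nploc4, a cofactor of Vcp, had 0.54 (adjusted p = 0.0622).

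Of 11 regulators 1 rose: Nfe2l1, the transcription factor that raises proteasome genes when the protease is inhibited (0.97, adjusted p = 0.0226). It was at 135, 418, 340 and 315 in young controls and 412, 543, 575 and 452 in young runners, and at 398, 159, 224 and 357 in old controls and 446, 651, 587 and 664 in old runners. Old groups did not overlap, and 1 young control lay above the lowest young runner. The call was lost without the young runner numbered 2 or the old runner numbered 4 (adjusted p up to 0.0535). The median of the list was 0.01, against 0.06 over all genes.

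Of 21 genes of antigen processing and interferon 1 rose, Irf8 (0.47, adjusted p = 0.0328), which 11 of 24 alternatives lost. Tapbp, the tapasin gene, had 0.54 (adjusted p = 0.0870). Between controls of the 2 ages, where none of 16 tested passed, H2-K1, a class I heavy chain, had the smallest p (0.79, adjusted p = 0.162), at 18 to 26.4 RPM in young and 29.9 to 50.2 in old controls. It was followed by Igtp, an interferon-induced GTPase (0.63, adjusted p = 0.209).

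Promoter windows for 42 of 50 members were found in the RefSeq table of build GRCm38.p6. The windows of the 5 genes past the threshold are shown because they moved in 2 directions. Each is the 250 bases before the start annotated by RefSeq, 5′ to 3′ on the strand of the gene, and capitals mark matches to the motifs named after them. For Psmd1 the RefSeq start lies downstream of the gene start given above, so most of its window is inside the gene as annotated by GENCODE.
Psma3 (chr12:70974373-70974622, plus strand): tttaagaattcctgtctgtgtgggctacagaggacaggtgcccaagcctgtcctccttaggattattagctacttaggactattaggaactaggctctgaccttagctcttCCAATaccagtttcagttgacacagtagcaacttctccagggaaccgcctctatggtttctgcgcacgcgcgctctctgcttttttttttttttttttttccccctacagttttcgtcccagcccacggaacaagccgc
Psma5 (chr3:108256676-108256925, plus strand): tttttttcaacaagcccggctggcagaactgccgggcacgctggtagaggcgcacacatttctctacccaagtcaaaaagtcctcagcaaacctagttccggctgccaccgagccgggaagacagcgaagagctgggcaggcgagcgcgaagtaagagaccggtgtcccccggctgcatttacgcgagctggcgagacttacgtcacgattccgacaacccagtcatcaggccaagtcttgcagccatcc
Psmd1 (chr1:86064369-86064618, plus strand): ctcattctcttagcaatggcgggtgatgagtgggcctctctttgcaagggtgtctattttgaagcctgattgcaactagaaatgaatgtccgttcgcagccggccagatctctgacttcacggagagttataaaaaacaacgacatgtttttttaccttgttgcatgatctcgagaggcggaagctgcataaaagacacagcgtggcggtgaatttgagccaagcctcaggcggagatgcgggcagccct
Psmd2 (chr16:20651402-20651651, plus strand): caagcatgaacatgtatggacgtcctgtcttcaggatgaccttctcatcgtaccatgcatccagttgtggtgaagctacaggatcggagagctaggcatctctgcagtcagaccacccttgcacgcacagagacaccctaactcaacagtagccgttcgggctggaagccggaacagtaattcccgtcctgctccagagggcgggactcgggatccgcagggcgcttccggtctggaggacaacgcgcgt
Psme3 (chr11:101315963-101316212, plus strand): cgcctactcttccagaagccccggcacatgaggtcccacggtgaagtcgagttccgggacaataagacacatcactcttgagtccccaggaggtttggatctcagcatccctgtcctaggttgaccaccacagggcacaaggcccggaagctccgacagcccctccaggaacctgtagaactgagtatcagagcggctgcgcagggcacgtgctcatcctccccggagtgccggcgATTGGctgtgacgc

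The 250 bases were searched on both strands for TGACNNNGC, the core of the antioxidant response element bound by Nfe2l1 and Nfe2l2, for CCAAT, bound by NF-Y, and for ISRE, GAAA followed by any 2 bases and GAAA again, a core of the interferon response element. None of these 5 windows held TGACNNNGC or ISRE. CCAAT occurred in Psma3, starting 139 bases before the start, and in Psme3 on the other strand, where the matched bases begin 14 before it. Over all members TGACNNNGC was found in 5 of 42 windows (11.9%), those of Psmb5, Psmb6, Psmc6, Psmd9 and Psmd12, against 10.1% of 27025 windows in the table. In Psmb5 the match read TGACGTCGC and in Psmb6 TGACGGAGC. CCAAT was in 15 (35.7%, against 34.5%) and ISRE in 3 (7.14%, against 3.04%), with 0 of 5 immunoproteasome windows holding the latter. So few windows cannot show if the element is rarer there than in the table. The windows of Psmb8 and Psmb9 also lie inside the genes as annotated by GENCODE. For 37 of 42 windows the bases after the start matched the beginning of an annotated transcript of the gene.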

How the data were processed

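The authors trimmed reads with Trim Galore, aligned them to mm10 with STAR, counted them with featureCounts of Subread and transformed counts with DESeq2, per the submitters' processing notes; versions are not given in the sources used here. Per the labels' protocols, cDNA was made with SMART-Seq v4 and libraries with Ovation Ultralow, which keep no strand. The deposited values are on a variance-stabilised log2 scale, in 4 tables of 8 libraries, each normalised separately. Inverting the transform gave whole reads for 100% of values (within 0.02 reads), from which levels and the 16-library model were computed.

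Each table was tested with limma 3.58.1 in R 4.3.3 (empirical Bayes with trend) on genes at least 1 above the floor in 4 libraries. Running averaged over ages, and its difference between ages, were tested with limma-voom on genes with at least 10 reads. Benjamini-Hochberg adjustment covered all genes, with a threshold of 0.05. Scripts were tested on simulated data. The members and lists were chosen with earlier results of these data known. Per-library values are given for the 5 immunoproteasome genes, Psmb5 to Psmb7, members past the threshold and, where fewer than 3 passed, the 3 members with the smallest p in each comparison; pathway genes are named if past the threshold or, for some lists, among the 2 with the smallest p; a pathway gene that this would name is not reported here. Psme2b is described apart from the immunoproteasome genes.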

Additional observations from a re-analysis of the deposited data

Results flagged for a closer look

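Of 96 groups of 4 libraries, over 24 genes, 5 held a library whose gap to the nearest other relative to the range of the group passed the 95% critical value of Dixon's test, which chance gives in about 1 of 20 groups. Psmb8 was at 0.321 RPM in the young control numbered 8 and at 0 to 0.0295 in the other young controls. Psmb9 was at 0.207 in the young control numbered 7, at 0.776 in the young runner numbered 1 and at 0.480 in the old control numbered 3, and at 0 in the other 3 libraries of each of these groups. With these at 0 the gap equals the range whatever the remaining value, so the flags of Psmb9 were fixed in advance. Psmd4 was at 259 in the old control numbered 4, against 212 to 219 in the other old controls.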

How the results depend on the processing

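The calls of Psma3, Psma5, AI314180 and Uba1 held in all 24 alternatives, and those of Psmd2, Nfe2l1, Psmd1, Ubqln4, Irf8 and Psme3 were lost in 1, 2, 5, 10, 11 and 17. The 24 alternatives include the replicate block described below, the only one that lost the call of Psmd2. For running at 22 months, where 12 genes passed, 7 did with no filter, 27 with the stricter filter, 23 with median centring, 24 with quantile normalisation, 688 with library weights, 4 without a trend, 5 with the length trend removed, 3 with voom and 1 to 295 with a library left out. For running at 4 months (81 genes) these counts were 24 with no filter, 143 with median centring, 228 with quantile normalisation, 1394 with library weights, 47 without a trend, 160 with the length trend removed, 7 with voom and 0 to 181 with a library left out. For age in controls (11 genes) they were 3 with no filter, 28 with quantile normalisation, 461 with library weights, 24 with the length trend removed, 3 with voom and 3 to 52 with a library left out. For age in runners (2 genes) they were 7 with library weights and 0 to 3 with a library left out. Averaged over ages (803 genes) 2209 passed with library weights and 304 to 1087 with a library left out. The difference between ages gave 7 genes with no filter and 0 as reported. Library weights called 3 members at 22 months, 5 at 4 months, 2 for age in controls and 8 averaged over ages. Averaged over ages, 3 members passed with upper quartile scaling, 3 with quantile normalisation and 3 to 6 with a library left out, and at 22 months 0 to 1 did with a library left out. The causes were not tested.

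Replicate numbers do not pair the libraries: deviations of same-numbered libraries correlated at -0.14, -0.13, 0.12 and -0.11 at 22 months and at -0.24, 0.09, -0.40 and -0.04 between runners. With the replicate block 0 genes passed at 22 months, 0 for age in runners and 310 averaged over ages, with 3 members; Psmd2 then had an adjusted p of 0.0825 and Psme1 a difference of -0.032. The block also turned the members' median for the difference between ages to 0.22 and put 0 of 7 beta subunits and 0 of 6 ATPases above 0 averaged over ages. In the model of 16 libraries the numbers 5, 7 and 8 occur only among young controls. The block therefore left the level of young controls to the library numbered 4, the one that stood apart. Results of that model with the block rest on this library and cannot show how far the calls depend on pairing. No block could be fitted for running at 4 months or age in controls, which share 1 number.

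Signs turned only for differences that passed in no setting named here. For age in controls Psma5 had -0.087 to 0.20 with a library left out. For age in runners Psma3 had -0.00060 with the length trend removed and Psmd1 0.0052 with median centring; with a library left out these ranged from -0.054 to 0.11 for Psma3, -0.053 to 0.075 for Psma5 and -0.086 to 0.032 for Psmd1. For the difference between ages Psma5 had -0.024 with upper quartile scaling, -0.029 with quantile normalisation, -0.13 with library weights, -0.066 with the length trend removed and -0.15 to 0.13 with a library left out. Without size factors, old controls held 1321 RPM of alpha ring, 1544 of ATPases, 2510 of both rings and 4588 of cap, against 1220, 1427, 2320 and 4234. Depth limits Psmb8 and Psmb9, which were at 0 in 5 and 11 libraries.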
